A study of Homo sapiens with 15 samples.

Results

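SCC15 and SCC25 are established cell lines from oral cancers, which the study treats as its mesenchymal-like and its basal-like model. Their RNA was compared gene by gene in the state before YBX1, a DNA- and RNA-binding protein, was depleted. The comparison took every library of these lines in that state, which is 6 of the 15 libraries of the series, 3 for SCC15 and 3 for SCC25. Of the other 9, 3 were from OKF6, a line of normal oral epithelium, and 3 from each cancer line after YBX1 knockdown. SCC15 and SCC25 cells carried lentiviral Cas9 marked with mCherry and, marked with GFP, a guide RNA to YBX1 under doxycycline control, and were sorted for both colours and expanded, with no clone named. The +YBX1 cells got no doxycycline, and their labels give a wild-type genotype and 3 days, while the -YBX1 cells got 1 µg/mL doxycycline. The virus was packaged in lenti-X293T, a line derived from embryonic kidney. SCC15 was grown in DMEM with foetal bovine serum, and SCC25, like OKF6, in keratinocyte serum-free medium with bovine pituitary extract, EGF and calcium. Line and medium therefore cannot be told apart in any value below.

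Squamous epithelium lines the mouth and the skin. Its basal cells express a set of keratins under the control of p63 and hold to the basement membrane through hemidesmosomes, while desmosomes, cadherins and tight junctions bind the cells to each other. Cells that move upwards switch on cornified envelope and S100 proteins. In an epithelial-mesenchymal transition, ZEB, SNAI and TWIST factors repress cadherin and junction genes, and carcinoma cells take on vimentin, fibronectin and other matrix proteins.

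Each value below is a log2 CPM, that is log2 of the reads of a gene scaled to the depth of its library (CPM), from 3′ end sequencing, with 0.5 added to each read count before deposit. A difference is SCC15 minus SCC25 on that log2 scale, with its standard error (SE), and a gene was called when its limma adjusted p was under 0.05. The 6 libraries held between 4780340 and 6090488 reads on genes, so that 1 read was worth 0.154 to 0.208 CPM. The labels do not say whether the 3 libraries of a line came from separate cultures. The p-values thus measure a spread between libraries that may be technical, pooled over all 9 libraries of SCC15, SCC25 and OKF6. In bulk RNA, fewer cells of a type and less RNA per cell cannot be told apart.

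The lines differed in a large part of the transcriptome. Of 12995 genes, 5672 (43.6%) were called. SCC15 was the higher line for 2602 of these (20.0% of all genes) and the lower line for 3070 (23.6%). The median difference was -0.01, with quartiles of -0.89 and 0.83. The median SD of a gene between replicates was 0.30 in SCC15, 0.23 in SCC25 and 0.56 in OKF6. Among called genes, 2916 differed over 4-fold, 1266 with SCC15 above SCC25 and 1650 with SCC15 below. The lowest values went further than the highest, since 660 called genes were lower in SCC15 over 32-fold and 345 higher. The replicates of the lines did not overlap for 8658 genes (66.6%), with SCC15 above for 4227 (32.5%) and below for 4431 (34.1%). With library medians set equal the split was 3045 higher and 2685 lower and the median of all genes was 0.14, and with quantiles set equal it was 3430 and 2767, with a median of 0.17. Every difference below can be read against a shift of that size between scalings. Every list count below stands beside the 20.0% of all genes called higher in SCC15 and the 23.6% called lower.

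**Figure D1:**
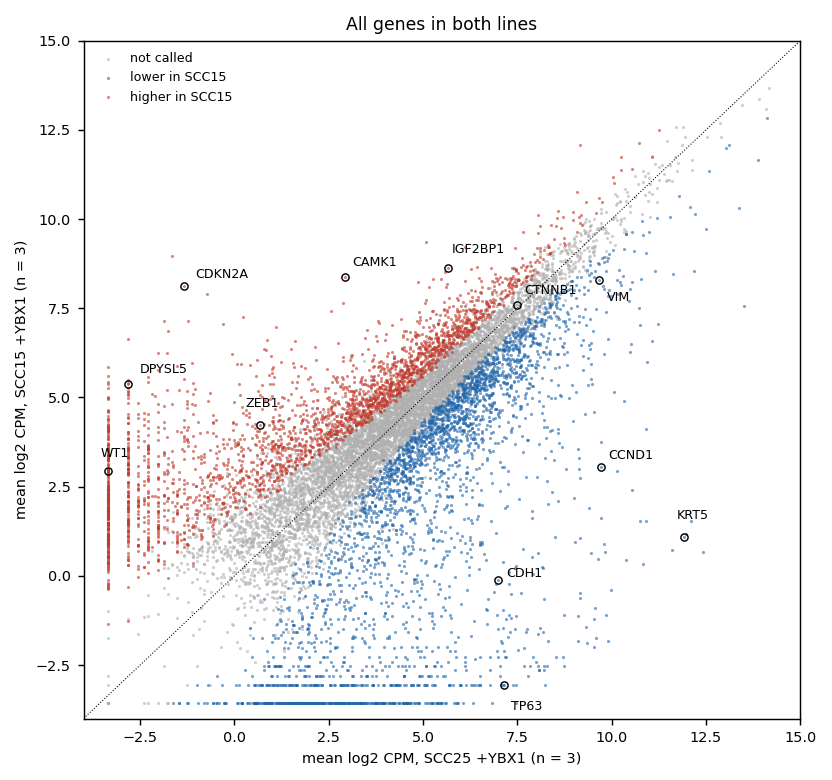
Mean log2 CPM of every gene in the 3 SCC25 +YBX1 libraries (horizontal axis) and the 3 SCC15 +YBX1 libraries (vertical axis), coloured by the call, with the dotted line marking equal levels. A band of genes at the lower edge had no or hardly any reads in SCC15, KRT5, CDH1 and TP63 lie far below the line, and CDKN2A, WT1 and DPYSL5 far above it.

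A group of genes was at the detection floor, taken as 3 reads, in every library of a single line. In SCC15, 623 genes (4.79%) had at most 3 reads in each library while all SCC25 libraries were above, and 83 of these (13.3%) were at the floor in OKF6 too. The reverse held for 602 genes (4.63%), of which 450 (74.8%) were also at the floor in OKF6. Genes at the floor in SCC15 were thus mostly above it in OKF6, and genes at the floor in SCC25 mostly at the floor in OKF6 as well.

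The label of SCC15 as a squamous line was checked against defining markers. All 14 markers of squamous epithelium were in the table, and their summed level was between 93.07 and 131.7 CPM in SCC15, between 13580 and 24680 CPM in SCC25 and between 27920 and 38750 CPM in OKF6. TP63, DSG3, COL17A1 and GRHL2 were at the floor in SCC15. The markers of squamous epithelium therefore went against the label in the libraries labelled SCC15, and SCC15 below stands for the libraries so labelled. Of 10 fibroblast markers, 2 were in the table, with 11.3 to 30.23 CPM in SCC15 and 21.86 to 97.93 CPM in SCC25, and none of 3 endothelial markers was in it. Of 4 immune markers only CD14 was, at 0 to 0.728 CPM in SCC15 and 2.364 to 5.075 CPM in SCC25. Of 8 markers of the developing kidney, 6 were in the table, with a summed 67.61 to 89.32 CPM in SCC15 and 50.03 to 63.0 CPM in SCC25. EYA1, PAX2 and WT1 were at the floor in SCC25 and PAX8 was at the floor in SCC15. Of 7 neuronal markers, 6 were in the table, with a summed 233.3 to 314.8 CPM in SCC15 and 82.34 to 94.35 CPM in SCC25, where NEFM and INA were at the floor. These markers did not all go 1 way, since TUBB3 and MAP2 were called lower in SCC15, with differences of -0.72 and -1.93. The part of these other cell types' genes in the results was not tested.

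The promoters of 4 genes are shown because they carry, or lack, the 3 motifs searched, and differed between the lines. They are the RefSeq sequences of GRCh38.p14, from 250 bases before to 50 bases after the start, written 5′ to 3′ on the gene's strand, which is the plus strand for all 4. Capitals mark the letters TGANTCA (bound by AP-1), CACCTG or its complement CAGGTG (an E-box bound by ZEB and SNAI proteins) and GAAANNGAAA (an interferon-stimulated response element), each searched on both strands. SFN and CLDN4 are epithelial genes low in SCC15, OAS3 is an interferon-stimulated gene low in SCC15, and INA is a neuronal gene low in SCC25. Their positions are chr1:26862899-26863198 for SFN, chr7:73830746-73831045 for CLDN4, chr12:112938224-112938523 for OAS3 and chr10:103276888-103277187 for INA.
SFN: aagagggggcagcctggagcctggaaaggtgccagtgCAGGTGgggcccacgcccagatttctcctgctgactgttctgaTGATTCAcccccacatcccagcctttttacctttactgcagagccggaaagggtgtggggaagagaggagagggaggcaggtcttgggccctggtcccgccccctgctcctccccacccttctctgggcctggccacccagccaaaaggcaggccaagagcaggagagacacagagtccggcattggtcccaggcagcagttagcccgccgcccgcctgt
CLDN4: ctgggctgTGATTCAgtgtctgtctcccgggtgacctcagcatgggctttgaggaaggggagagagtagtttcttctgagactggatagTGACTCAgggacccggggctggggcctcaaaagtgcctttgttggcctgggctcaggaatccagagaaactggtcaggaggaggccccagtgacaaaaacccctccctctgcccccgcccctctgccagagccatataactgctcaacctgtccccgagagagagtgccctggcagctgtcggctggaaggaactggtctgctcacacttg
OAS3: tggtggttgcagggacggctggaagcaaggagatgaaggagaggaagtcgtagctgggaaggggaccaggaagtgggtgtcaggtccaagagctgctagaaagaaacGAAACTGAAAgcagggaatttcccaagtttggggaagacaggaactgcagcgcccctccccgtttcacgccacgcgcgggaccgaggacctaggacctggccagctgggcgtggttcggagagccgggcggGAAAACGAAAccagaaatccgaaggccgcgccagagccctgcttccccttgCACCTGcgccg
INA: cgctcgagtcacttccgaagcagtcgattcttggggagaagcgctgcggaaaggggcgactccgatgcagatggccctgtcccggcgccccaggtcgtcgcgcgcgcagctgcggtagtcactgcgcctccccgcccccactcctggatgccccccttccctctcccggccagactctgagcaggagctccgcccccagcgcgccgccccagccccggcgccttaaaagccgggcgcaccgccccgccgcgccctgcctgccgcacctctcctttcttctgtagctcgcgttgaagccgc

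Counted from the start of the gene, TGATTCA began at -170 and CAGGTG at -213 in SFN. CLDN4 held TGATTCA from -242 and TGACTCA from -161, and OAS3 held its GAAANNGAAA matches from -143 and -12. INA held none of these letters and 35 CpG sites, where SFN held 7 and CLDN4 held 5. Over the 10249 genes of the table with a RefSeq promoter, TGANTCA stood in 4.62% of all promoters, in 60 of the 429 promoters of genes called lower in SCC15 over 32-fold and in 10 of the 243 (4.12%) of genes called higher over 32-fold. For CACCTG the shares were 18.3%, 29.6% and 19.8%. GAAANNGAAA stood in 2.63% of all promoters and in 14 of 21 (66.7%) of interferon-stimulated genes, and TGANTCA in 9 of 17 (52.9%) of squamous differentiation genes. The median number of CpG sites in these windows was 27 over all genes, 13 in genes lower over 32-fold and 27 in genes higher over 32-fold. A match describes letters in the window, and no binding was measured.

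Keratins of stratified epithelium had the lowest median of the 35 gene lists. All 13 in the table were lower in SCC15, against 23.6% of all genes, with a median difference of -8.72 where the median of all genes was -0.01. KRT5 (chr12:52514575-52520530), which pairs with KRT14 in basal cells, was at 1.50, -1.25 and 3.04 log2 CPM in SCC15 and 12.32, 12.06 and 11.40 in SCC25, a difference of -10.83 ± 0.82 (SE, limma adjusted p = 2.21e-06). KRT14 was at -0.29, -0.40 and 1.66 log2 CPM in SCC15 and 11.33, 11.18 and 9.96 in SCC25, a difference of -10.50 ± 0.60 (SE, limma adjusted p = 3.83e-07). SCC25 thus held these basal keratins at levels of the same order as OKF6, where KRT5 was at 12.52, 13.13 and 13.40, and SCC15 held few reads of them. KRT17 differed by -9.22 ± 0.62 (SE, limma adjusted p = 1e-06). KRT6A, a keratin of activated keratinocytes, was at 2.04, -3.57 and 3.54 log2 CPM in SCC15 and 12.99, 12.33 and 11.93 in SCC25, and its SCC15 libraries spread more than those of most genes. Replicate 2 held no KRT6A read and replicate 3 the most, the same order in which KRT5 and KRT17 stood in these libraries. KRT5, KRT6A, KRT14 and KRT17 have close paralogs, and how reads shared between such copies were counted is not stated.

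The keratins of simple epithelia were lower in SCC15 as well, 5 of 5, with a median of -7.19, or -6.199 with the member without SCC15 reads at its bound. KRT18, the partner of KRT8, remained well detected in SCC15, at 5.67, 5.84 and 5.76 log2 CPM in SCC15 and 8.94, 9.35 and 9.44 in SCC25, a difference of -3.48 ± 0.18 (SE, limma adjusted p = 2.29e-07). KRT8 was at 2.21, 0.82 and 1.06 log2 CPM in SCC15 and 5.54, 6.16 and 5.42 in SCC25. KRT18 was therefore the simple keratin with the smallest difference, and KRT7 and KRT19 differed by -11.33 and -10.75, from 9.46, 9.42 and 9.89 log2 CPM of KRT7 in SCC25 to 2, 0 and 4 reads in SCC15.

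Desmosomes, which anchor keratin filaments at cell contacts, showed a graded difference, with 12 of 12 members lower in SCC15 and a median of -3.10. Some plaque proteins were still expressed in SCC15. DSP, the plakin that ties keratins to the desmosome, was at 6.79, 6.44 and 6.36 log2 CPM in SCC15 and 9.68, 9.67 and 9.04 in SCC25, a difference of -2.93 ± 0.24 (SE, limma adjusted p = 4.06e-06), and JUP (plakoglobin), which also serves cadherin contacts, differed by -4.03 ± 0.29 (SE, limma adjusted p = 1.38e-06). PERP, a membrane protein of desmosomes, differed by -3.26 ± 0.20 (SE, limma adjusted p = 6.49e-07). PKP1, DSG3 and PKP3 were nearly absent in SCC15, while the desmosomal cadherin DSC3 differed by -2.82. PKP1 was at -3.46, -1.98 and 0.00 log2 CPM in SCC15 and 10.27, 10.12 and 9.31 in SCC25, a difference of -11.71 ± 0.67 (SE, limma adjusted p = 3.94e-07). DSG3, a desmosomal cadherin, had 1, 0 and 1 reads in SCC15 and 132, 96 and 50 in SCC25, a level 164-fold (exact 95% counting interval 44.9 to 1359) lower, and PKP3 had 0, 0 and 3 reads in SCC15 and 528, 638 and 503 in SCC25, 656-fold (exact 95% counting interval 224 to 3182) lower.

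The classical cadherins differed in opposite directions. Of 8 cadherins and catenins, 5 were lower in SCC15 and 1 higher, against 23.6% and 20.0% of all genes. CDH1 (E-cadherin, chr16:68737292-68835537) was at 0.45, -1.98 and 1.16 log2 CPM in SCC15 and 7.24, 6.81 and 6.93 in SCC25, a difference of -7.12 ± 0.62 (SE, limma adjusted p = 5.84e-06), and CDH3 (P-cadherin) differed by -7.49 ± 0.36 (SE, limma adjusted p = 1.42e-07). CDH2 (N-cadherin) was higher in SCC15, at 5.15, 5.77 and 5.58 log2 CPM in SCC15 and 3.38, 3.13 and 3.83 in SCC25, a difference of 2.05 ± 0.43 (SE, limma adjusted p = 0.00277), and OKF6 had 0, 0 and 0 reads of it. N-cadherin was thus detected in both cancer lines and not in OKF6. CTNNB1 (beta-catenin), which cadherins share with the Wnt pathway, was at 7.33, 7.71 and 7.73 log2 CPM in SCC15 and 7.53, 7.37 and 7.56 in SCC25 and was not called (difference 0.10 ± 0.18 (SE, limma adjusted p = 0.681)).

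Among 12 tight junction genes, 9 were lower in SCC15 and 2 higher, against 23.6% and 20.0% of all genes. The list median was -2.58. CLDN1 was at 0.24, -1.25 and -1.38 log2 CPM in SCC15 and 5.66, 6.61 and 5.74 in SCC25, a difference of -6.80 ± 0.46 (SE, limma adjusted p = 9.59e-07). CLDN4, whose promoter is printed above, had 2, 0 and 1 reads in SCC15 and 42, 40 and 10 in SCC25, a level 36.1-fold (exact 95% counting interval 12 to 178) lower. TJP1, the scaffold ZO-1, was at 3.93, 3.92 and 4.27 log2 CPM in SCC15 and 5.55, 5.50 and 5.23 in SCC25 and differed by -1.39 ± 0.23 (SE, limma adjusted p = 0.000578). Cingulin (CGN), which binds such scaffolds, went the other way, at 3.91, 3.42 and 4.21 log2 CPM in SCC15 and 0.50, -0.17 and 0.43 in SCC25, a difference of 3.60 ± 0.53 (SE, limma adjusted p = 0.000263). The count of 2 higher genes became 1 when any 1 library of SCC15 or SCC25 was left out.

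Regulators that hold the epithelial state were all lower in SCC15, 18 of 18, with a median of -4.47, and 9 of them were at the floor there. TP63 (chr3:189631389-189897276), which directs the basal squamous programme, had 0, 0 and 1 reads in SCC15 and 1058, 727 and 475 in SCC25, a level 2663-fold (exact 95% counting interval 477 to 1.05e+05) lower (limma adjusted p = 9.88e-08). GRHL2, which keeps junction genes on, had 0, 0 and 1 reads in SCC15 and 58, 81 and 57 in SCC25. SCC25 held TP63 near the level of OKF6, at 7.64, 7.16 and 6.63 log2 CPM where OKF6 was at 7.50, 6.70 and 6.68. ESRP1, an epithelial splicing regulator, was at 0.63, -3.57 and -0.89 log2 CPM in SCC15 and 6.53, 6.38 and 6.17 in SCC25, a difference of -7.64 ± 0.80 (SE, limma adjusted p = 2.18e-05). SOX15 differed by -9.67 ± 0.77 (SE, limma adjusted p = 3.19e-06), EHF was 931-fold (exact 95% counting interval 167 to 3.68e+04) lower, and OVOL2, a repressor of ZEB1, was 20.8-fold (exact 95% counting interval 6.75 to 104) lower, from 18, 19 and 16 reads in SCC25.

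The transcription factors of the epithelial-mesenchymal transition did not move as a group. Of 8 in the table, 3 were higher in SCC15, 2 lower and 3 not called, where 20.0% of all genes were higher and 23.6% lower. The list median was 0.58. ZEB1 (chr10:31318495-31529814), a repressor of CDH1, was at 4.48, 3.78 and 4.45 log2 CPM in SCC15 and 0.68, 0.56 and 0.82 in SCC25, a difference of 3.55 ± 0.56 (SE, limma adjusted p = 0.000432), and ZEB2 had 17, 15 and 19 reads in SCC15 and 0, 2 and 3 in SCC25 and was higher by 3.18 ± 0.78 (SE, limma adjusted p = 0.00741). Both ZEB genes were thus higher in SCC15, as was GSC, a homeobox factor, which differed by 3.36 ± 0.76 (SE, limma adjusted p = 0.00447). SNAI2 was lower in SCC15, at 4.92, 4.23 and 4.01 log2 CPM in SCC15 and 6.79, 6.02 and 6.32 in SCC25, a difference of -1.99 ± 0.43 (SE, limma adjusted p = 0.00334). TWIST2 had no read in any SCC15 library and 14, 18 and 24 in SCC25, a level at least 22-fold lower (limma adjusted p = 6.29e-06). SNAI2 is expressed in basal keratinocytes too, and it stood at 5.94, 7.57 and 7.54 log2 CPM in OKF6.

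The effector genes of a mesenchymal state were mostly lower in SCC15, 13 of 18 against 2 higher, with a median of -1.71. VIM (vimentin) was well expressed in both lines and lower in SCC15, at 8.23, 8.37 and 8.28 log2 CPM in SCC15 and 9.50, 9.41 and 10.12 in SCC25, a difference of -1.38 ± 0.21 (SE, limma adjusted p = 0.000353), while OKF6 was at 6.75, 6.41 and 6.55. FN1 (fibronectin) was at 4.69, 4.10 and 3.58 log2 CPM in SCC15 and 10.71, 11.05 and 10.97 in SCC25, a difference of -6.79 ± 0.37 (SE, limma adjusted p = 2.89e-07). Tenascin C (TNC) had no read in SCC15 and 239, 81 and 76 in SCC25, a level at least 156-fold lower. Vimentin was therefore above OKF6 in each SCC15 and SCC25 library, whereas fibronectin, at 10.60, 10.05 and 9.14 in OKF6, was below OKF6 in each SCC15 library. PDPN (podoplanin), a glycoprotein of invading tumour edges, was at 5.83, 5.81 and 5.64 log2 CPM in SCC15 and 8.29, 7.48 and 7.48 in SCC25, a difference of -1.99 ± 0.29 (SE, limma adjusted p = 0.000265). The higher genes were SPARC, a matrix glycoprotein, at 6.06, 4.54 and 5.10 log2 CPM in SCC15 and -3.41, -0.17 and 0.43 in SCC25 (6.28 ± 0.87 (SE, limma adjusted p = 0.000174)), and LUM (lumican), with 15, 2 and 13 reads in SCC15 and 0, 1 and 0 in SCC25. SPARC was also expressed in OKF6, at 7.91, 6.46 and 6.65 log2 CPM.

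The anchors to the basement membrane were lower in SCC15 without exception, 9 of 9 with a median of -6.07. LAMB3, a chain of laminin-332, was at -1.87, -3.57 and 0.00 log2 CPM in SCC15 and 9.44, 8.71 and 9.20 in SCC25, a difference of -10.93 ± 0.67 (SE, limma adjusted p = 6.15e-07). COL17A1, the hemidesmosomal collagen, had 0, 0 and 3 reads in SCC15 and 1592, 1329 and 1185 in SCC25, a level 1613-fold (exact 95% counting interval 551 to 7823) lower. ITGA6 and ITGB4 form the laminin receptor of hemidesmosomes. ITGA6 was at 3.28, 3.17 and 3.42 log2 CPM in SCC15 and 9.27, 8.86 and 9.31 in SCC25, a difference of -5.85 ± 0.19 (SE, limma adjusted p = 2.11e-08), with replicates close together, and ITGB4 differed by -6.07 ± 0.46 (SE, limma adjusted p = 2.36e-06). Of 14 other integrins and kindlins, 9 were lower and 3 higher, against 23.6% and 20.0% of all genes. The median of these 14 was -1.75. ITGA3 differed by -6.41 ± 0.28 (SE, limma adjusted p = 9.06e-08) and ITGB1, the chain it pairs with, by -3.88 ± 0.42 (SE, limma adjusted p = 2.67e-05). FERMT1 (kindlin-1), which activates integrins in epithelium, was at -3.46, -3.57 and -0.53 log2 CPM in SCC15 and 9.27, 8.20 and 8.77 in SCC25, a difference of -11.27 ± 0.72 (SE, limma adjusted p = 7.17e-07).

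**Figure D2:**
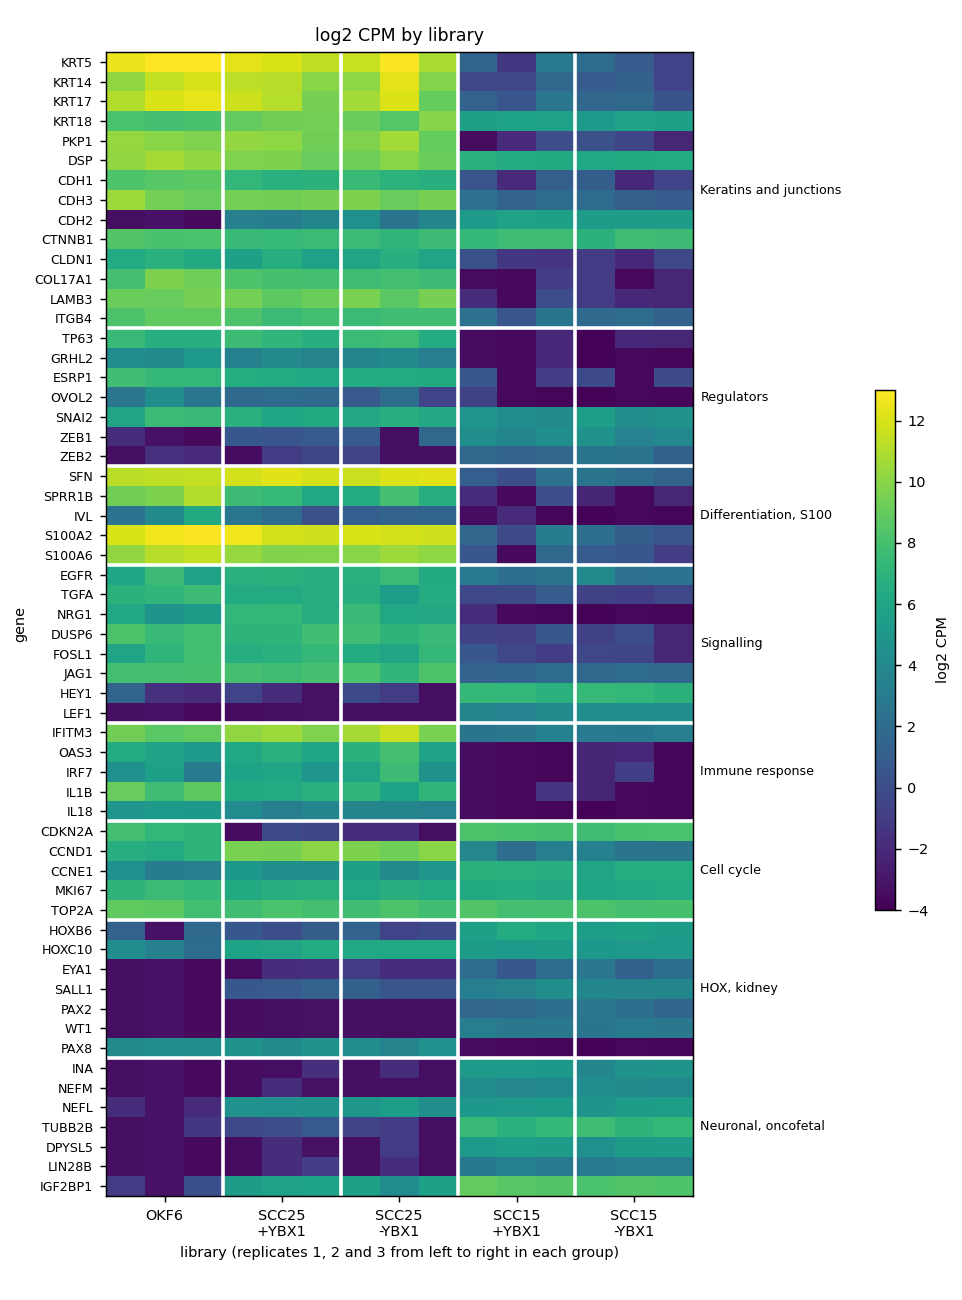
log2 CPM (colour) of genes named in the text (rows) in each of the 15 libraries (columns, replicates 1 to 3 in each group), with groups of genes named at the right. The SCC15 columns are dark where OKF6 and SCC25 are light for keratins, junctions, regulators and S100 genes. They are lighter than the others for PAX2, WT1, INA, NEFM and LIN28B, and alike with and without YBX1.

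Differentiation genes of the upper layers followed the same direction, with 22 of 24 lower in SCC15, none higher and a median of -5.52, and 14 at the floor in SCC15. SFN (14-3-3 sigma), whose promoter is printed above, was at 1.07, 0.13 and 2.32 log2 CPM in SCC15 and 11.83, 12.15 and 11.93 in SCC25, a difference of -10.79 ± 0.42 (SE, limma adjusted p = 5.46e-08). Its residual reads in SCC15 numbered 11, 6 and 32. IVL (involucrin), a cornified envelope precursor, had 0, 1 and 0 reads in SCC15 and 34, 19 and 5 in SCC25, a level 68.3-fold (exact 95% counting interval 11.8 to 2745) lower. IVL and its neighbours SPRR1A and SPRR1B are late differentiation genes, and in SCC25 they spread widely, with replicate 3 the lowest for each. SPRR1A had 0, 0 and 3 reads in SCC15 and 2399, 1774 and 801 in SCC25 and SPRR1B had 1, 0 and 6 reads in SCC15 and 1095, 847 and 345 in SCC25. ANXA1 (annexin A1) differed by -8.12 ± 0.33 (SE, limma adjusted p = 5.69e-08). CALML3, a calmodulin-like protein of stratified epithelium, had no read in SCC15 and 819, 338 and 702 in SCC25, a level at least 730-fold lower.

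S100 proteins, small calcium-binding proteins that mostly lie in 1 cluster on chromosome 1, gave 12 of 13 lower and none higher, with a median of -8.10, or -7.39 with members without SCC15 reads at their bounds. S100A2, a p63 target, was at 1.59, -0.11 and 3.15 log2 CPM in SCC15 and 12.65, 11.92 and 11.77 in SCC25, a difference of -10.57 ± 0.64 (SE, limma adjusted p = 5.51e-07). S100A6 was at 0.63, -3.57 and 1.73 log2 CPM in SCC15 and 10.28, 9.79 and 9.86 in SCC25 and S100A14 at -1.14, -1.25 and 0.55 log2 CPM in SCC15 and 9.11, 9.35 and 9.02 in SCC25. As for the keratins, the few SCC15 reads of S100A2 and S100A6 were fewest in replicate 2 and most in replicate 3. S100A8 and S100A9 form calprotectin, the antimicrobial complex of squamous cells and neutrophils. S100A8 differed by -8.51 ± 1.02 (SE, limma adjusted p = 6.12e-05), and S100A9 had 1, 1 and 1 reads in SCC15 and 475, 254 and 81 in SCC25, a level 318-fold (exact 95% counting interval 108 to 1546) lower.

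Among the EGF receptor family and its ligands, 8 of 10 were lower in SCC15 and 1 higher, with a median of -3.52, in cells of which only SCC25 received EGF in the medium. The receptor gene EGFR (chr7:55019017-55211628) was at 3.02, 2.21 and 2.57 log2 CPM in SCC15 and 6.85, 6.94 and 6.68 in SCC25, a difference of -4.22 ± 0.43 (SE, limma adjusted p = 1.79e-05). The ligand TGFA was at -0.29, -0.11 and 0.94 log2 CPM in SCC15 and 6.49, 6.36 and 6.60 in SCC25, a difference of -6.299 ± 0.34 (SE, limma adjusted p = 2.94e-07). Receptor and ligand were thus both lower in SCC15. NRG1, a ligand of ERBB3 and ERBB4, had 1, 0 and 0 reads in SCC15 and 831, 810 and 469 in SCC25, a level 2486-fold (exact 95% counting interval 446 to 9.82e+04) lower, while its relative NRG2 was higher in SCC15, at 2.38, 1.99 and 1.73 log2 CPM in SCC15 and -1.83, -0.54 and -0.10 in SCC25 (2.85 ± 0.56 (SE, limma adjusted p = 0.00184)). The ligand EREG had 0, 0 and 2 reads in SCC15 and 36, 27 and 23 in SCC25. AXL, a receptor tyrosine kinase often linked to mesenchymal tumour cells, was at -0.29, -3.57 and -2.11 log2 CPM in SCC15 and 4.49, 6.18 and 6.24 in SCC25, a difference of -7.63 ± 0.77 (SE, limma adjusted p = 1.65e-05).

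Genes that report ERK signalling downstream of such receptors were lower too, 14 of 16 with none higher and a median of -4.45, or -4.22 at the bounds. DUSP6, the ERK phosphatase, was at -0.65, -0.76 and 0.69 log2 CPM in SCC15 and 7.03, 7.04 and 7.77 in SCC25, a difference of -7.52 ± 0.40 (SE, limma adjusted p = 2.89e-07). The ETS factors ETV4 and ETV5 were 223-fold (exact 95% counting interval 61.4 to 1850) and 231-fold (exact 95% counting interval 117 to 536) lower. FOSL1, an AP-1 subunit, was at 0.63, -0.40 and -0.89 log2 CPM in SCC15 and 6.62, 6.84 and 7.33 in SCC25, a difference of -7.15 ± 0.51 (SE, limma adjusted p = 1.38e-06), and PHLDA1 differed by -7.43 ± 0.27 (SE, limma adjusted p = 3.37e-08).

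Of 14 PI3K subunits, AKT genes and their regulators, 4 were higher in SCC15, 4 lower and 6 not called, near the 20.0% and 23.6% of all genes, with a median of -0.07 that turned to 0.08 with library medians set equal. PIK3R3, a regulatory subunit, was higher, at 3.64, 4.27 and 4.48 log2 CPM in SCC15 and 2.08, 2.15 and 2.57 in SCC25, a difference of 1.86 ± 0.44 (SE, limma adjusted p = 0.00559). IRS1, the insulin receptor substrate, differed by -3.08 ± 0.29 (SE, limma adjusted p = 1.13e-05), and INPP4B, a phosphatase that acts on PI3K products, by -4.22 ± 0.38 (SE, limma adjusted p = 7.78e-06). The levels of these transcripts do not measure the activity of the kinase. The number of lower genes became 2 when SCC15 replicate 2 or SCC25 replicate 3 was left out, and with library medians or quantiles set equal.

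The TGF-beta pathway had 9 of 20 genes lower in SCC15 and 5 higher, against 23.6% and 20.0% of all genes. The list median was -0.51. The receptor TGFBR2 was at 2.88, 2.16 and 2.68 log2 CPM in SCC15 and 5.80, 5.99 and 6.38 in SCC25, a difference of -3.49 ± 0.35 (SE, limma adjusted p = 1.56e-05), and the signal transducer SMAD3 differed by -2.21 ± 0.24 (SE, limma adjusted p = 2.85e-05). The target TGFBI, a secreted matrix protein, stood further apart than receptor and transducer, at -0.29, -3.57 and 1.16 log2 CPM in SCC15 and 9.85, 9.06 and 9.77 in SCC25 (-10.46 ± 0.89 (SE, limma adjusted p = 4.98e-06)). ID2, a repressor of basic helix-loop-helix factors, went the other way, at 6.68, 5.42 and 5.47 log2 CPM in SCC15 and -0.60, 2.21 and 1.49 in SCC25, a difference of 4.82 ± 0.83 (SE, limma adjusted p = 0.000761). The 5 higher genes became 3 when any SCC15 library or SCC25 replicate 1 was left out.

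In the Notch pathway, 6 of 12 genes were lower in SCC15 and 5 higher, against 23.6% and 20.0% of all genes. The list median was -0.69. The ligand JAG1 was at 1.40, 1.56 and 1.92 log2 CPM in SCC15 and 8.02, 7.70 and 7.96 in SCC25, a difference of -6.27 ± 0.20 (SE, limma adjusted p = 1.67e-08), and the ligand JAG2 differed by -1.55 ± 0.30 (SE, limma adjusted p = 0.00165). The receptor NOTCH1 differed by -1.27 ± 0.33 (SE, limma adjusted p = 0.0094). The targets diverged from each other. HES1, the common target of the pathway, was at 6.90, 6.58 and 6.93 log2 CPM in SCC15 and 7.97, 7.79 and 7.99 in SCC25, a difference of -1.11 ± 0.19 (SE, limma adjusted p = 0.000773). HEY1 (chr8:79762371-79767857) had 868, 901 and 743 reads in SCC15 and 3, 1 and 0 in SCC25, a level 533-fold (exact 95% counting interval 208 to 1958) higher in SCC15 (limma adjusted p = 1.79e-05), and HEY2 was higher by 3.36 ± 0.50 (SE, limma adjusted p = 0.000286). HES6, an antagonist of HES1, was among the 15 genes with the largest positive differences above median expression, at 6.68, 5.94 and 5.83 log2 CPM in SCC15 and 2.82, 3.03 and 2.76 in SCC25 (3.28 ± 0.37 (SE, limma adjusted p = 3.74e-05)).

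Genes of YAP, TAZ and TEAD gave 12 of 15 lower in SCC15, none higher and a median of -1.56. The coactivator YAP1 was at 3.44, 3.40 and 3.79 log2 CPM in SCC15 and 5.71, 5.69 and 5.36 in SCC25, a difference of -2.04 ± 0.26 (SE, limma adjusted p = 8.44e-05), and its relative WWTR1 (TAZ) differed by -1.14 ± 0.21 (SE, limma adjusted p = 0.00134). TEAD2, a DNA-binding partner, differed by -1.19 ± 0.31 (SE, limma adjusted p = 0.00945). F3, the coagulation initiator tissue factor, was at 0.79, 0.13 and 0.39 log2 CPM in SCC15 and 10.06, 10.65 and 10.43 in SCC25, a difference of -9.94 ± 0.24 (SE, limma adjusted p = 2.79e-09), the smallest adjusted p among the genes named here.

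Among 27 Wnt pathway genes, 11 were lower in SCC15, 5 higher and 11 not called. The share of higher genes was close to the 20.0% of all genes, while 23.6% of all genes were lower. The list median was -0.16 and turned to 0.03 with quantiles set equal. LEF1, the DNA-binding factor through which beta-catenin acts, had 74, 69 and 115 reads in SCC15 and 0, 0 and 0 in SCC25, a level at least 73-fold higher in SCC15 (limma adjusted p = 7.12e-07). The secreted inhibitor DKK1 was at -0.29, 0.34 and -1.38 log2 CPM in SCC15 and 6.51, 6.93 and 7.25 in SCC25, a difference of -7.33 ± 0.54 (SE, limma adjusted p = 1.83e-06). FZD7, a receptor, was at 3.78, 3.23 and 3.46 log2 CPM in SCC15 and 1.72, 1.61 and 2.23 in SCC25 and was not called (1.64 ± 0.94 (SE, limma adjusted p = 0.186)), although its replicates did not overlap between the lines. In the fit of the 6 libraries without OKF6 its adjusted p was 0.00172.

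Of 18 cell cycle regulators of G1, 5 were higher in SCC15 and 5 lower, near the 20.0% and 23.6% of all genes, with a median of -0.02. CDKN2A (chr9:21967752-21995301), which encodes the inhibitor p16 and the protein ARF, was at 8.25, 8.12 and 8.04 log2 CPM in SCC15 and -3.41, -0.17 and -0.46 in SCC25, a difference of 9.49 ± 0.69 (SE, limma adjusted p = 1.59e-06), the largest positive value of a gene named here. It was expressed in OKF6 at 7.91, 7.27 and 7.04 log2 CPM. MTAP, its neighbour on chromosome 9, was at 4.82, 4.37 and 4.62 log2 CPM in SCC15 and 4.39, 4.26 and 4.90 in SCC25 and was not called (0.09 ± 0.23 (SE, limma adjusted p = 0.791)). CCND1 (cyclin D1, chr11:69641156-69654474) was lower in SCC15, at 3.84, 2.10 and 3.24 log2 CPM in SCC15 and 9.58, 9.49 and 10.05 in SCC25, a difference of -6.64 ± 0.38 (SE, limma adjusted p = 4.01e-07). CCNE1 (cyclin E1) was higher, at 6.95, 6.78 and 6.74 log2 CPM in SCC15 and 5.07, 4.46 and 4.47 in SCC25 (2.16 ± 0.33 (SE, limma adjusted p = 0.000378)), as was the inhibitor CDKN2C (3.14 ± 0.33 (SE, limma adjusted p = 2.51e-05)). CDKN1A (p21) differed by -1.84 ± 0.30 (SE, limma adjusted p = 0.000487). The 5 higher genes became 3 without SCC15 replicate 2 or 3, and the median turned to 0.13 and 0.20 with library medians and with quantiles set equal.

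Mitosis and replication genes were mostly not called, with 7 of 30 higher in SCC15, none lower and a median of 0.33. This share of higher genes was close to the 20.0% of all genes. It was 11 of 30 in the fit without OKF6, where 3762 of 12995 genes were higher, and with quantiles set equal, and 12 of 30 in the -YBX1 libraries, where the share of all genes was 28.0%. MKI67, the marker of cycling cells, was at 6.34, 6.47 and 6.27 log2 CPM in SCC15 and 6.34, 6.67 and 6.79 in SCC25 and was not called (-0.24 ± 0.20 (SE, limma adjusted p = 0.345)). TOP2A was at 8.38, 7.95 and 7.996 log2 CPM in SCC15 and 7.80, 8.20 and 7.96 in SCC25 and was not called either (0.12 ± 0.27 (SE, limma adjusted p = 0.737)). MCM6, a subunit of the replicative helicase, was higher in SCC15, at 7.23, 7.33 and 7.23 log2 CPM in SCC15 and 5.91, 5.98 and 5.69 in SCC25 (1.40 ± 0.20 (SE, limma adjusted p = 0.000179)), and TYMS, the thymidylate synthase, differed by 1.34 ± 0.20 (SE, limma adjusted p = 0.000242).

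Interferon-stimulated genes, which cells switch on against viruses, were lower in SCC15 in 25 of 27 cases and higher in none, with a median of -5.11, or -4.84 at the bounds. IFITM3, which blocks viral entry, was at 2.61, 2.77 and 3.46 log2 CPM in SCC15 and 10.20, 10.51 and 9.69 in SCC25, a difference of -7.18 ± 0.29 (SE, limma adjusted p = 5.69e-08). IFI27 differed by -8.91 ± 0.52 (SE, limma adjusted p = 4.28e-07). OAS3, which senses double-stranded RNA and whose promoter is printed above, had no read in any SCC15 library and 385, 550 and 309 in SCC25, a level at least 489-fold lower. SCC25 was at 6.18, 6.76 and 6.01 log2 CPM for OAS3 and OKF6 at 6.47, 5.80 and 5.20, so that SCC15 differed from both. IRF7, an amplifier of the response, had no read in SCC15 and was at least 303-fold lower, and ISG15 differed by -3.55 ± 0.34 (SE, limma adjusted p = 1.24e-05). IFITM3 has close paralogs among which reads may be shared.

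All 18 cytokines and chemokines in the table were lower in SCC15, with a median of -6.91, or -6.55 at the bounds, and 11 were at the floor there. IL1A had 1, 1 and 3 reads in SCC15 and 789, 770 and 848 in SCC25, a level 567-fold (exact 95% counting interval 243 to 1748) lower, and IL1B had 0, 0 and 2 reads in SCC15 and 426, 430 and 539 in SCC25, 822-fold (exact 95% counting interval 227 to 6793) lower. Both interleukin-1 genes are stored alarm signals of keratinocytes, and both were high in OKF6, at 8.73, 6.97 and 8.32 log2 CPM for IL1A. IL18 had no read in SCC15 and was at least 82.5-fold lower, and CXCL8, a neutrophil attractant, had 0, 1 and 0 reads in SCC15 and 23, 58 and 37 in SCC25. Of 8 genes of MHC class I presentation in the table, 4 were lower and none was higher, against 23.6% and 20.0% of all genes. The median of these 8 was -1.80.

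Markers of immune cells were rare in the table, with 4 of 19 present. CD68 was lower in SCC15, at 0.24, -1.25 and -2.11 log2 CPM in SCC15 and 5.30, 5.26 and 5.16 in SCC25 (-6.28 ± 0.63 (SE, limma adjusted p = 1.54e-05)), and CD14 had 4, 0 and 4 reads in SCC15 and 27, 12 and 13 in SCC25.

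Proteases and inhibitors of invasion were lower in SCC15 in 28 of 31 cases and higher in none, with a median of -5.23, or -5.06 at the bounds. PLAU, the urokinase, was at 2.73, 0.68 and 1.43 log2 CPM in SCC15 and 9.97, 9.09 and 10.13 in SCC25, a difference of -8.11 ± 0.54 (SE, limma adjusted p = 9.38e-07), and its receptor PLAUR remained expressed in SCC15, at 5.71, 6.01 and 5.58 log2 CPM in SCC15 and 7.19, 7.25 and 7.56 in SCC25, a difference of -1.56 ± 0.21 (SE, limma adjusted p = 0.000156). MMP9 had 0, 1 and 1 reads in SCC15 and 1024, 1567 and 677 in SCC25, a level 1925-fold (exact 95% counting interval 532 to 1.59e+04) lower. ST14 (matriptase), a membrane protease of epithelium, was 445-fold (exact 95% counting interval 152 to 2159) lower, and SERPINB5 (maspin) differed by -10.12 ± 0.69 (SE, limma adjusted p = 1e-06).

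Caveolae and the actin-myosin system gave 22 of 23 lower, none higher and a median of -3.37. CAV1 (caveolin-1) was at 2.95, 1.48 and 2.81 log2 CPM in SCC15 and 10.60, 10.65 and 10.34 in SCC25, a difference of -8.11 ± 0.36 (SE, limma adjusted p = 9.6e-08), and CAVIN3, which coats caveolae, had 1, 0 and 1 reads in SCC15 and 1251, 1031 and 1182 in SCC25. ANXA2 (annexin A2) was at 6.90, 6.37 and 6.45 log2 CPM in SCC15 and 10.94, 11.08 and 11.20 in SCC25, a difference of -4.50 ± 0.24 (SE, limma adjusted p = 2.89e-07), and the lamin gene LMNA differed by -3.37 ± 0.75 (SE, limma adjusted p = 0.00406). CD44, the hyaluronan receptor, was at 1.75, -0.76 and 0.94 log2 CPM in SCC15 and 9.28, 9.48 and 9.60 in SCC25, a difference of -8.80 ± 0.49 (SE, limma adjusted p = 3.28e-07). The CAV1 and CD44 libraries of SCC15 thus all lay below those of SCC25, and CAV1 stayed above the floor in each.

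Metabolic lists had medians nearer to 0. Of 31 genes of sterol and fatty acid synthesis, 15 were lower in SCC15 and 1 higher, against 23.6% and 20.0% of all genes. The list median was -0.78. HMGCS1, an early enzyme of the sterol pathway, was at 5.91, 6.198 and 5.39 log2 CPM in SCC15 and 8.45, 9.02 and 7.99 in SCC25, a difference of -2.65 ± 0.30 (SE, limma adjusted p = 4.02e-05), the desaturase SCD differed by -2.31 ± 0.25 (SE, limma adjusted p = 2.68e-05) and the regulator SREBF1 by -2.67 ± 0.25 (SE, limma adjusted p = 1.04e-05). Serine synthesis and transsulfuration went the other way, with 7 of 15 higher and 1 lower, against 20.0% and 23.6% of all genes. The median of these 15 was 0.41. PHGDH, the entry enzyme of serine synthesis, was at 8.42, 8.16 and 7.96 log2 CPM in SCC15 and 5.68, 5.58 and 5.62 in SCC25, a difference of 2.55 ± 0.43 (SE, limma adjusted p = 0.000703), and PSAT1, the next enzyme, differed by 1.25 ± 0.26 (SE, limma adjusted p = 0.00291). ASNS (asparagine synthetase) differed by 1.73 ± 0.37 (SE, limma adjusted p = 0.00354) and ATF4, which controls these genes, by 1.44 ± 0.31 (SE, limma adjusted p = 0.00335). The list did not rise as a whole, since 7 members were not called and the 1 called lower was at -2.31. The 7 higher genes became 4 without SCC15 replicate 1 or SCC25 replicate 3.

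Of 19 NRF2 targets, 8 were lower in SCC15 and 2 higher, against 23.6% and 20.0% of all genes. The list median was -1.08. NQO1, a quinone reductase, was at 4.86, 5.20 and 5.25 log2 CPM in SCC15 and 7.22, 7.46 and 6.93 in SCC25, a difference of -2.10 ± 0.34 (SE, limma adjusted p = 0.000545), and GCLM, a subunit of the enzyme that starts glutathione synthesis, differed by -2.47 ± 0.36 (SE, limma adjusted p = 0.000252). AKR1C1, an aldo-keto reductase with near-identical relatives, was at -1.14, -1.98 and -0.24 log2 CPM in SCC15 and 5.09, 4.91 and 4.12 in SCC25 (-5.83 ± 0.50 (SE, limma adjusted p = 5.01e-06)). TXNRD1 (thioredoxin reductase) was higher in SCC15, at 5.89, 5.53 and 5.92 log2 CPM in SCC15 and 4.12, 4.71 and 4.91 in SCC25 (1.21 ± 0.33 (SE, limma adjusted p = 0.0124)). Its call was lost without SCC25 replicate 1, at an adjusted p of 0.057. In the retinoid and aldehyde dehydrogenase list, 3 of 14 were higher and 4 lower, close to the 20.0% and 23.6% of all genes, with a median of -0.62. The lower genes numbered 7 in the fit without OKF6 or without OKF6 replicate 2, and the median was -0.25 without SCC25 replicate 1, -0.35 without SCC15 replicate 3 and -1.04 without SCC25 replicate 3. The enzymes that make retinoic acid differed in opposite directions. ALDH1A3 was at 1.75, 2.16 and 2.37 log2 CPM in SCC15 and 8.53, 8.41 and 8.78 in SCC25, a difference of -6.48 ± 0.29 (SE, limma adjusted p = 9.06e-08), while ALDH1A2 had 171, 138 and 177 reads in SCC15 and 0, 3 and 1 in SCC25, a level 103-fold (exact 95% counting interval 40 to 380) higher in SCC15. CYP26A1, which degrades retinoic acid and is a target of it, had 12, 32 and 24 reads in SCC15 and 0, 0 and 0 in SCC25, a level at least 19.2-fold higher in SCC15.

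HOX genes, which mark position along the body axis, were higher in SCC15 in 19 of 34 cases and lower in 1, against 20.0% and 23.6% of all genes, with a median of 1.39, or 0.91 over the 20 members above the first quartile of mean expression, of which 8 were higher. In the fit of the 6 libraries without OKF6, 23 were higher and 4 lower. In SCC25, 4 of the 34 were at the floor and could hardly come out lower in SCC15. HOXB6 was at 5.63, 6.46 and 6.05 log2 CPM in SCC15 and 0.68, 0.12 and 0.98 in SCC25, a difference of 5.45 ± 1.06 (SE, limma adjusted p = 0.00178), and HOXA5 at 3.99, 3.25 and 3.36 log2 CPM in SCC15 and -1.83, 0.36 and -0.46 in SCC25 (4.18 ± 0.83 (SE, limma adjusted p = 0.002)). HOXB8 had 24, 25 and 25 reads in SCC15 and 0, 2 and 0 in SCC25, a level 31.4-fold (exact 95% counting interval 8.39 to 264) higher. The lines did not differ alike across the clusters. HOXC10 was at 5.27, 5.14 and 5.32 log2 CPM in SCC15 and 5.88, 5.93 and 6.48 in SCC25 and was not called (-0.85 ± 0.47 (SE, limma adjusted p = 0.171)), with all SCC15 libraries below those of SCC25. HOXB7 was the gene called lower, at 3.80, 5.09 and 4.62 log2 CPM in SCC15 and 5.57, 5.45 and 5.92 in SCC25 (-1.14 ± 0.38 (SE, limma adjusted p = 0.0315)). The HOXB7 call was lost without SCC15 replicate 1 or 3 or without any SCC25 library, with adjusted p up to 0.118, and with library medians or quantiles set equal. HOX clusters hold antisense transcripts, and whether counting used the strand is not stated.

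Genes of the developing kidney were divided. Of 23 listed genes, 17 were in the table, with 9 higher in SCC15 and 1 lower, against 20.0% and 23.6% of all genes. The list median was 1.06, or 0.28 over the 7 members above the first quartile of mean expression, of which 2 were higher. In SCC25, 5 members were at the floor. A gene kept in the table by its SCC15 reads alone could only come out higher in SCC15. PAX2 (chr10:100735396-100829944), a regulator of the nephric lineage, had 16, 19 and 31 reads in SCC15 and 0, 0 and 0 in SCC25, a level at least 18.7-fold higher (limma adjusted p = 5.49e-06). WT1 (chr11:32387775-32435564), which acts in nephron progenitors, had 53, 40 and 44 reads in SCC15 and 0, 0 and 0 in SCC25, at least 38.8-fold higher (limma adjusted p = 1.44e-06). Neither had a read in OKF6. EYA1, a transcriptional cofactor, had 23, 9 and 24 reads in SCC15 and 0, 1 and 1 in SCC25, CITED1 had 263, 229 and 269 reads in SCC15 and 1, 3 and 2 in SCC25 and EMX2 had 72, 38 and 63 reads in SCC15 and 0, 0 and 3 in SCC25. SALL1 was at 3.36, 3.59 and 4.42 log2 CPM in SCC15 and 0.68, 0.90 and 1.38 in SCC25, a difference of 2.81 ± 0.50 (SE, limma adjusted p = 0.000973). PAX8, a paralog of PAX2 in the same lineage, was the gene called lower, with 0, 0 and 0 reads in SCC15 and 132, 87 and 129 in SCC25, a level at least 137-fold lower in SCC15, and OKF6 expressed it at 4.16, 4.24 and 4.49 log2 CPM. PAX2 and PAX8 were thus each detected in 1 of the lines.

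Neuronal and neural progenitor genes had a median of 2.92, the highest of the lists when all listed genes in the table were taken. SCC15 was higher for 17 of 25 and lower for 3, against 20.0% and 23.6% of all genes. The 3 lower genes were MAP2, DPYSL3 and TUBB3, with differences of -1.93, -1.30 and -0.72. Of the 25, 7 were at the floor in SCC25 and could hardly come out lower in SCC15. Among the 12 members above the first quartile of mean expression, 5 were higher and the median was 0.76, below the 0.91 of the HOX list under the same limit. INA (chr10:103277138-103290346), the intermediate filament internexin whose promoter is printed above, had 190, 207 and 213 reads in SCC15 and 0, 0 and 1 in SCC25, a level 518-fold (exact 95% counting interval 92.6 to 2.05e+04) higher (limma adjusted p = 1.44e-06). NEFM, a neurofilament subunit, had 105, 87 and 99 reads in SCC15 and 0, 1 and 0 in SCC25, 247-fold (exact 95% counting interval 44 to 9789) higher. The related subunit NEFL was expressed in both lines, at 5.04, 5.14 and 5.28 log2 CPM in SCC15 and 4.62, 4.59 and 4.75 in SCC25. It was not called (0.50 ± 0.44 (SE, limma adjusted p = 0.388)), although its replicates did not overlap between the lines. INA and NEFM had no read in OKF6, and NEFL 1, 0 and 1. The collapsin response genes DPYSL5 and CRMP1, which act in growth cones, were 639-fold (exact 95% counting interval 114 to 2.53e+04) and 353-fold (exact 95% counting interval 63 to 1.4e+04) higher. TUBB2B, a neuronal tubulin with a near-identical copy, was at 7.55, 6.87 and 7.34 log2 CPM in SCC15 and -0.24, 0.12 and 0.82 in SCC25, a difference of 7.02 ± 0.62 (SE, limma adjusted p = 6.28e-06), and the microtubule protein MAP1B differed by 1.40 ± 0.36 (SE, limma adjusted p = 0.00868). UCHL1, a ubiquitin hydrolase abundant in neurons, was at 8.16, 8.34 and 8.52 log2 CPM in SCC15 and 6.54, 6.57 and 6.33 in SCC25 (1.86 ± 0.69 (SE, limma adjusted p = 0.0497)). Its call was lost when any 1 library of SCC15 or SCC25 was left out and in the fit without a variance trend, with limma adjusted p up to 0.131. The call of UCHL1 held in the fit of the 6 libraries without OKF6 and when any 1 OKF6 library was left out. Its replicates did not overlap between the lines.

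Oncofetal genes, normally silent after birth, went both ways, with 3 of 9 higher in SCC15 and 3 lower, against 20.0% and 23.6% of all genes. The list median was 0.21. IGF2BP1, an RNA-binding protein, was at 8.91, 8.57 and 8.43 log2 CPM in SCC15 and 5.42, 5.71 and 5.89 in SCC25, a difference of 2.97 ± 0.64 (SE, limma adjusted p = 0.00343), and its paralog IGF2BP3 was not called (0.47 ± 0.25 (SE, limma adjusted p = 0.15)). LIN28B, which blocks let-7 maturation, had 40, 64 and 53 reads in SCC15 and 0, 1 and 2 in SCC25, a level 44.4-fold (exact 95% counting interval 14.9 to 218) higher. HMGA2, a chromatin protein repressed by let-7, was lower in SCC15, at 8.20, 7.66 and 7.70 log2 CPM in SCC15 and 9.60, 9.92 and 10.22 in SCC25 (-2.06 ± 0.26 (SE, limma adjusted p = 7.91e-05)).

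Outside the lists, the genes with the largest positive differences among well expressed ones belonged to varied classes. CAMK1, a calmodulin-dependent kinase, was at 8.35, 8.51 and 8.28 log2 CPM in SCC15 and 2.78, 3.19 and 2.80 in SCC25, a difference of 5.45 ± 0.63 (SE, limma adjusted p = 4.72e-05). MAPK8IP2, a scaffold of JNK signalling, was at 7.04, 6.79 and 7.10 log2 CPM in SCC15 and 1.72, 2.54 and -0.94 in SCC25 (5.87 ± 0.75 (SE, limma adjusted p = 9.93e-05)), and SAMD11 at 6.27, 6.87 and 6.64 log2 CPM in SCC15 and 1.45, 2.08 and 1.26 in SCC25 (5.00 ± 0.45 (SE, limma adjusted p = 7e-06)). ATP6V0E2, a subunit of the proton pump of endosomes, differed by 4.86 ± 0.41 (SE, limma adjusted p = 4.66e-06), RADX, which binds single-stranded DNA at replication forks, by 4.27 ± 0.54 (SE, limma adjusted p = 8.96e-05), and NEO1, a netrin receptor, by 3.88 ± 0.42 (SE, limma adjusted p = 2.83e-05). DLX2, a homeobox factor, differed by 3.78 ± 0.32 (SE, limma adjusted p = 4.45e-06) and CCNG1 (cyclin G1) by 3.32 ± 0.22 (SE, limma adjusted p = 9.91e-07). Among the lowest, FGFBP1, a carrier of fibroblast growth factors, was at -1.14, -3.57 and 1.43 log2 CPM in SCC15 and 9.75, 10.44 and 9.39 in SCC25, a difference of -10.95 ± 0.93 (SE, limma adjusted p = 4.91e-06), and G0S2, an inhibitor of lipolysis, at 2.42, 0.52 and 1.66 log2 CPM in SCC15 and 11.20, 10.58 and 10.96 in SCC25 (-9.38 ± 0.47 (SE, limma adjusted p = 1.9e-07)). YBX1 itself was at 5.11, 5.56 and 6.00 log2 CPM in SCC15 and 6.74, 6.305 and 6.62 in SCC25 and was not called (-0.999 ± 0.39 (SE, limma adjusted p = 0.0581)), although its replicates did not overlap. In the fit of the 6 libraries without OKF6, whose YBX1 levels were 6.76, 8.15 and 8.37, the adjusted p was 0.00375.

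The same lines were sequenced in 6 separate libraries after doxycycline, which allowed the difference to be measured again. YBX1 was at 3.36, 3.71 and 3.13 log2 CPM in SCC15 -YBX1 and 5.26, 4.70 and 3.65 in SCC25 -YBX1, below every +YBX1 library of its line. In these libraries 7427 genes (57.2%) were called between the lines, with SCC15 above for 3642 (28.0%) and below for 3785 (29.1%). Of the 5672 genes called without knockdown, 5664 (99.86%) had a difference of the same sign with it, 5306 were called in the same direction, which is 93.5% of the 5672 and 71.4% of the 7427, and 0 were called in the opposite one. KRT5 differed by -10.83 without and -11.01 with knockdown, TP63 by -10.19 and -9.94, CDKN2A by 9.49 and 10.33, and WT1 by 6.29 and 6.13. Of the 623 genes at the floor in SCC15 and above it in SCC25, 487 were so again, and of the 602 in the reverse state, 447. LUM was an exception, at 3.25 without and -0.53 with knockdown. PIK3CA, a catalytic subunit of PI3K, was another, at -0.18 and not called without knockdown but at -4.01 and called lower with it. A test of whether the difference between the lines changed with knockdown called 0 genes in limma at an adjusted p under 0.05, with 294 at an unadjusted p under 0.05.

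**Figure D3:**
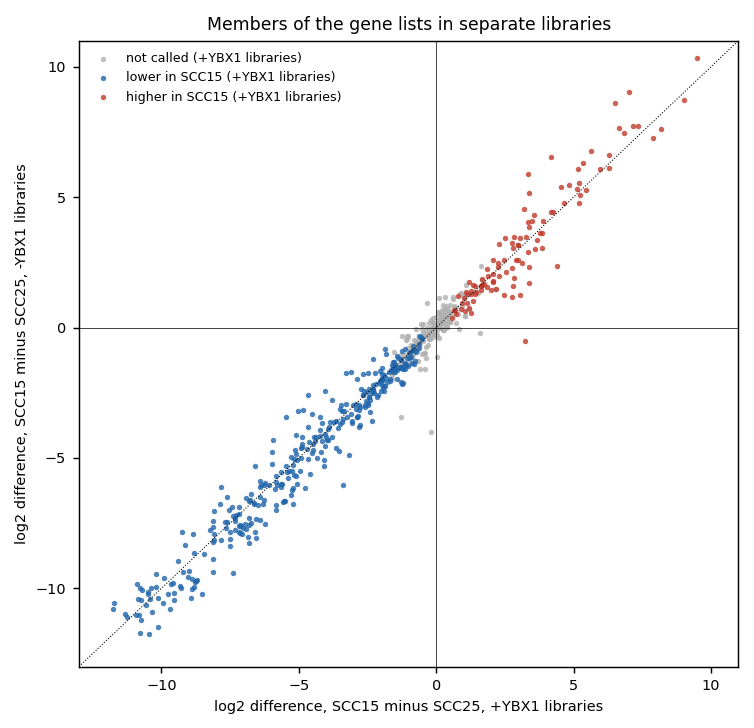
Difference in log2 CPM, SCC15 minus SCC25, in the +YBX1 libraries (horizontal axis) and in the separate -YBX1 libraries (vertical axis) for members of the gene lists, coloured by the call in the +YBX1 libraries, with the dotted line marking equal differences. Most points lie along the line from the lowest to the highest differences. LUM, at 3.25 and -0.53, and PIK3CA, at -0.18 and -4.01, lie below it.

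Differences were not spread evenly along the genome. Over 12099 genes placed on autosomes (hg38), running medians of 25 neighbouring genes were at or under -2 in 54 of 11571 windows and at or over 2 in 5, while medians of whole chromosomes lay between -0.39 and 0.58. The lowest window was on chromosome 1 (chr1:152032506-153616986, from S100A11 to S100A14), with a median of -6.22, 25 of 25 genes lower and 24 of them called. It holds the epidermal differentiation complex, the cluster of cornified envelope and S100 genes described above. The windows over the keratin clusters came next, chr12:51093656-53102345 with -3.79 and chr17:40121971-41786931 with -3.18. Genes that end these windows, and those of the runs below, were chosen after their values were seen.

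Other windows did not consist of a single gene family. Next among the lowest windows of each chromosome was chr16:56608584-57971128, with a median of -2.08 and 24 of 25 genes lower. On chromosome 3, chr3:184812143-192917856, which holds TP63, had a median of -1.998 with 25 of 25 genes lower, and the median of its genes against OKF6 was -1.39 in SCC15 and 0.48 in SCC25. On chromosome 11, chr11:68903863-72794047, which holds CCND1, had a median of -1.98 with 24 of 25 genes lower, and against OKF6 the medians were 0.19 in SCC15 and 2.47 in SCC25. In the chromosome 11 window it was thus SCC25 that stood apart from OKF6, and in the epidermal differentiation complex SCC15, with -8.91 against -0.99. The highest window, chr1:58575433-66924856, had a median of 2.15 with 22 of 25 genes higher, and against OKF6 1.14 in SCC15 and -0.78 in SCC25. A window over the HOXA cluster, chr7:25118656-29514328, had a median of 1.73 with 23 of 25 genes higher.

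**Figure D4:**
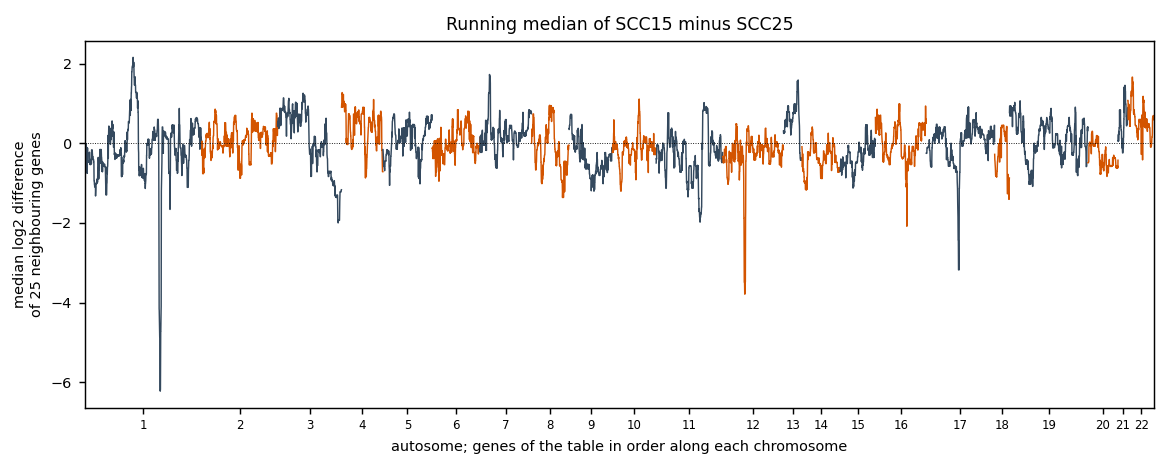
Running median of the difference in log2 CPM, SCC15 minus SCC25, over 25 neighbouring genes of the table along the autosomes (horizontal axis, colours alternating by chromosome). The deepest trough, at -6.22, is on chromosome 1, the next are the keratin clusters of chromosomes 12 and 17 at -3.79 and -3.18, and the highest peak is 2.15 on chromosome 1.

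Neighbouring genes were also at the floor together. In SCC15 there were 19 runs of 3 or more neighbouring genes at the floor that SCC25 expressed, 63 genes in all, and in SCC25 4 such runs with 13 genes. The longest run in SCC15 held 6 guanylate-binding protein genes of interferon defence, GBP3, GBP1, GBP2, GBP4, GBP5 and GBP6 (chr1:89006679-89388160). Others held OAS1, OAS3 and OAS2 (chr12:112905856-113011723), CASP4, CASP1 and CARD16 of the inflammasome (chr11:104942866-105101431), the collagenase and stromelysin genes MMP1, MMP3 and MMP13 (chr11:102789401-102955732) and the kallikreins KLK5, KLK6 and KLK7 (chr19:50943303-50984099). No gene of the GBP, OAS or KLK run was at the floor in OKF6. The longest run in SCC25 held 4 genes, KCNJ11, ABCC8, USH1C and KCNC1 (chr11:17365172-17856804), and all 4 were at the floor in OKF6 too.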

How the data were processed

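RNA of 15 libraries was prepared with QuantSeq 3′ FWD (Lexogen) from total RNA and sequenced on a NextSeq500 as single-end reads of 75 bases. Per the labels and methods, the authors used Cutadapt for trimming, HISAT2 for alignment to hg38, featureCounts for counting per gene and limma for the filter and the normalisation, with the strand setting and the treatment of reads shared by near-identical genes not given in the sources used here. The deposited values are log2 CPM, that is log2 of reads plus 0.5 scaled by the effective library size, and whole reads could be recovered from them. The authors' gene filter is in the tables and cannot be undone. Depth covers counting error alone, and the reads carry no molecular identifier used here.

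SCC15 and SCC25 +YBX1 entered a two-sided test in limma 3.58.1 (R 4.3.3), with lmFit and trended eBayes, and p-values were adjusted over 12995 genes by Benjamini-Hochberg and called at 0.05. The fit held all 9 libraries of the cell line table, OKF6 included, and the -YBX1 comparison all 12 of its table. Both tables hold the same 6 +YBX1 libraries, but the -YBX1 libraries are in neither arm of the main comparison. Where a line had at most 3 reads in each library, the fold is a ratio of summed reads with an exact 95% counting interval, or, with no read at all, a bound from 3 reads over its libraries. The fit was tested on simulated counts in which 200 genes had been changed, far fewer than the 5672 called in the data. All simulated libraries had the same spread between replicates, so this test does not cover the wider spread of OKF6. Named genes are key members of 35 lists and up to 4 further called members of each with the largest differences, the 15 largest differences each way above median expression, and YBX1. TUBB3, MAP2, DPYSL3 and PIK3CA were named after their values were seen. The members and the lists were chosen with earlier results of these data known, so no list was tested. Positions are from GENCODE v44. Of the 12995 genes, 12719 have a symbol in the files. The alternatives were the 6 libraries alone, the replicate block, other scalings, limma options, voom, filters, thresholds, window sizes and each library left out. Some results that touch withheld items are not reported here. Figures were drawn with matplotlib 3.10.9.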

Additional observations from a re-analysis of the deposited data

How the results depend on the processing

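The counts of genes called with and without knockdown and of genes without overlap stayed within 1.5 times their value under every alternative run. Leaving out 1 library gave 4494 to 6802 called genes between SCC15 and SCC25, and 6604 to 7226 between the -YBX1 libraries, with the 2 libraries then left in an arm assumed to vary like the other groups. The count was highest, at 7748, with only the 6 libraries and lowest, at 3838, with genes under the first quartile of expression dropped, where fewer genes were tested. It was 3868 at an adjusted p under 0.01, 4781 with a difference over 1 as well, and 5850 with voom. The lowest regional median was -2.44 in windows of 51 genes and -4.15 above the first quartile, and the cause was not tested.

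List medians near 0 changed sign. With library medians set equal, PI3K subunits and AKT went to 0.0829 and G1 control to 0.13. With quantiles set equal, the Wnt pathway went to 0.0256, G1 control to 0.20 and MKI67 to 0.0099. Above the first quartile, where few members were tested, EMT transcription factors went to -0.82 and oncofetal genes to -0.92, and other medians moved over 1.5 times without a change of sign, tight junction to -1.39, other integrins to -3.88, TGF-beta to -0.87, Notch to -1.19, MHC class I to -0.68, NRF2 targets to -0.67 and retinoid genes to -1.17. Over the fits that left out 1 library, the median ranged from -0.216 to 0.0667 for PI3K subunits and AKT, from -0.236 to 0.0345 for the Wnt pathway, from -0.256 to 0.0453 for G1 control and from -0.248 to 0.482 for oncofetal genes, and the difference from -0.0408 to 0.277 for MTAP and from -0.0114 to 0.233 for TOP2A. For these the cause was not tested. Of the 160 called genes followed through the alternatives, 3 lost their call in some alternative and none changed sign.

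Same-numbered libraries of SCC15 and SCC25 did not consistently deviate together. Over 6497 genes, their distances from the means of their groups had correlations of 0.0116, -0.0388 and -0.207, and 0.0156, -0.115 and 0.200 in the -YBX1 libraries. Not every library correlated best with its own number. The replicate numbers thus gave no steady pairing between the lines. Same-numbered +YBX1 and -YBX1 libraries of a line were not compared in this way. With the replicate block 5451 genes were called without and 7568 with knockdown. The limma test of a change of the difference then called 0 genes, with 327 at an unadjusted p under 0.05. Depth limits genes of a few reads, and at 3 reads or fewer levels are bounds or ratios with wide intervals.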
